A study of Homo sapiens with 8 samples.

Results

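MYC and 40 genes of its growth programme were followed in Raji, a B cell line from a Burkitt lymphoma, after Cas9 was aimed at a super-enhancer on chromosome 1. The 41 genes were chosen by name as MYC, its partner MAX, known targets of MYC and proteins that build ribosomes. Earlier results of these data were known when they were chosen. All 41 had a row among the 25377 genes of the RNA table, and 74 of the 70312 peaks of the ATAC table carried the name of 1 of them. Of these, MYC, BOP1 and the 3 peaks named for MYC lay on chr8:105000000-145000000, a stretch that was shifted as a whole. The other 39 genes lay on 15 other chromosomes.

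The controls were wild-type Raji. The RGS-SE knockout was made by electroporation of Cas9 and a pair of guide plasmids to delete chr1:192515157-192741754 (hg38). Cells were selected with puromycin, and single clones were checked by PCR and Sanger sequencing. Polyadenylated RNA and open chromatin (ATAC-seq, from 50000 cells per library) were measured in 2 libraries per genotype and assay, 8 in all, named as biological replicates. The number of clones is not given in the sources used here, so genotype and clone cannot be told apart, and p-values measure only the spread between these libraries.

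MYC is a transcription factor that binds DNA as a dimer with MAX, best at the E-box CACGTG, and drives cell growth. Much of its known programme is ribosome production: RNA polymerase I transcribes ribosomal RNA in the nucleolus, small nucleolar RNPs modify it, and assembly factors fold and trim it into the small and large subunits. In Burkitt lymphoma, MYC is joined to an immunoglobulin locus by a translocation, in Raji to the heavy chain genes, and is expressed from that rearranged allele.

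Because the E-box is the site MYC and MAX share, CACGTG was searched in the promoter peaks of these genes. The motif is its own reverse complement, so 1 search covers both strands. Of the 34 genes with a peak of their own name within 1000 bp of the start, 17 held it in the 600 bases centred on the peak nearest the start. Among all 11816 peaks within that distance 13.8% did, and among the 7407 whose mean normalised count reached 500 the share was 14.6%. In the RefSeq start windows (GRCh38.p14, 250 bases before to 50 after a start), 18 of the 35 matched genes (51.4%) held it in at least 1 window. The share was 8.77% of 27305 genes, and 13.8% of the 4752 whose mean normalised RNA count reached 1000. The list was chosen to hold known targets of MYC, so a share above these backgrounds is no independent result of these data. The sites shown here belong to ODC1, RRP9 and GNL3, which passed the RNA test and hold a site, read from hg38 on the strand of the gene, with the motif in capitals. Both ODC1 sites (chr2:10448024-10448053 and chr2:10447990-10448019, minus strand) lay in intron 1, starting 286 and 320 bases after the start of the GENCODE canonical transcript, outside the 600 bases searched but inside the promoter peak. The RRP9 site (chr3:51941892-51941921, minus strand) began 5 bases before the start and reached its first base, and the GNL3 site (chr3:52686026-52686055, plus strand) lay in exon 1, 6 bases after the start.
ODC1, first site: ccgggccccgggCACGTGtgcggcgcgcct
ODC1, second site: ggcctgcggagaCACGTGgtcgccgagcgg
RRP9: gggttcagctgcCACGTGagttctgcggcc
GNL3: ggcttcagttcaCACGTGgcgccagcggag
No CACGTG was found in either kind of window of NCL or WDR74.

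The deposited tables hold a mean over 4 libraries and a fold change, with no value per library. Levels per genotype are therefore fitted values, computed from those 2 numbers, and overlap between libraries cannot be shown. Log2 fold changes, standard errors (SE) and adjusted p-values are those of the authors' deposited tables (DESeq2 Wald test, Benjamini-Hochberg over the whole table), and a gene or peak is called where the adjusted p is under 0.05. The tables do not name the sign. A positive value was read as higher in the knockout, because the peak at chr1:192609102-192609836 in the targeted interval had a fitted count of 621.5 on one side and 0.186 on the other (deposited log2 fold change -11.71, adjusted p = 2.16e-14). The other 17 of the 18 peaks in that interval lay between -0.97 and 1.14, so most of the interval's peaks were still found in the libraries labelled knockout. With the opposite coding every direction given here would turn.

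B cell identity was as labelled: the 5 B cell markers MS4A1, CD79A, CD79B, PAX5 and CD22 summed to a fitted 1690 CPM in the wild type and 2139 in the knockout. Within that sum MS4A1 rose (553.5 and 1126 CPM, deposited log2 fold change 1.06, adjusted p = 1.24e-06) and CD79B fell (231.2 and 131.3 CPM, -0.78, adjusted p = 2.03e-04). Of 7 T and NK cell markers 2 had a row (summed 0.127 and 0.368 CPM), of 6 myeloid markers 5 had a row (2.20 and 1.66) and of 8 erythroid, epithelial or fibroblast markers 2 had a row (4.01 and 8.40, nearly all COL1A1). Of all features in the authors' deposited tables, 19.2% of the 17013 tested genes and 35.9% of the peaks were called.

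The growth genes did not move as a group. In the authors' deposited table, calls were made for 10 of the 41 genes (24.4%), against 19.2% of all tested genes and 29.1% of genes whose mean normalised count reached 1000, as 39 of the 41 do. NCL, ODC1, MYC and GNL3 were higher in the knockout, 4 genes against a background of 9.89% called higher, and BOP1, MAX, RRP9, WDR74, WDR12 and FBL were lower, 6 genes against 9.28%. Centred on chromosome medians the split was 2 higher and 8 lower, and on local RNA medians 4 higher and 2 lower. The deposited log2 fold changes were positive for 20 genes and negative for 21, with a median of -0.03 beside 0.02 over all tested genes. Only BOP1 changed by at least 1 on the log2 scale. Of the 31 genes not called, 18 had a 95% Wald interval within 1.5-fold either way and 30 had one within 2-fold, so larger changes of most of these genes lie outside their intervals. TERT, the reverse transcriptase of telomerase, was the exception: its fitted level was 126.6 normalised counts in the wild type and 69.0 in the knockout, with a deposited log2 fold change of -0.88 (SE 0.50, adjusted p = 0.233).

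**Figure D1:**
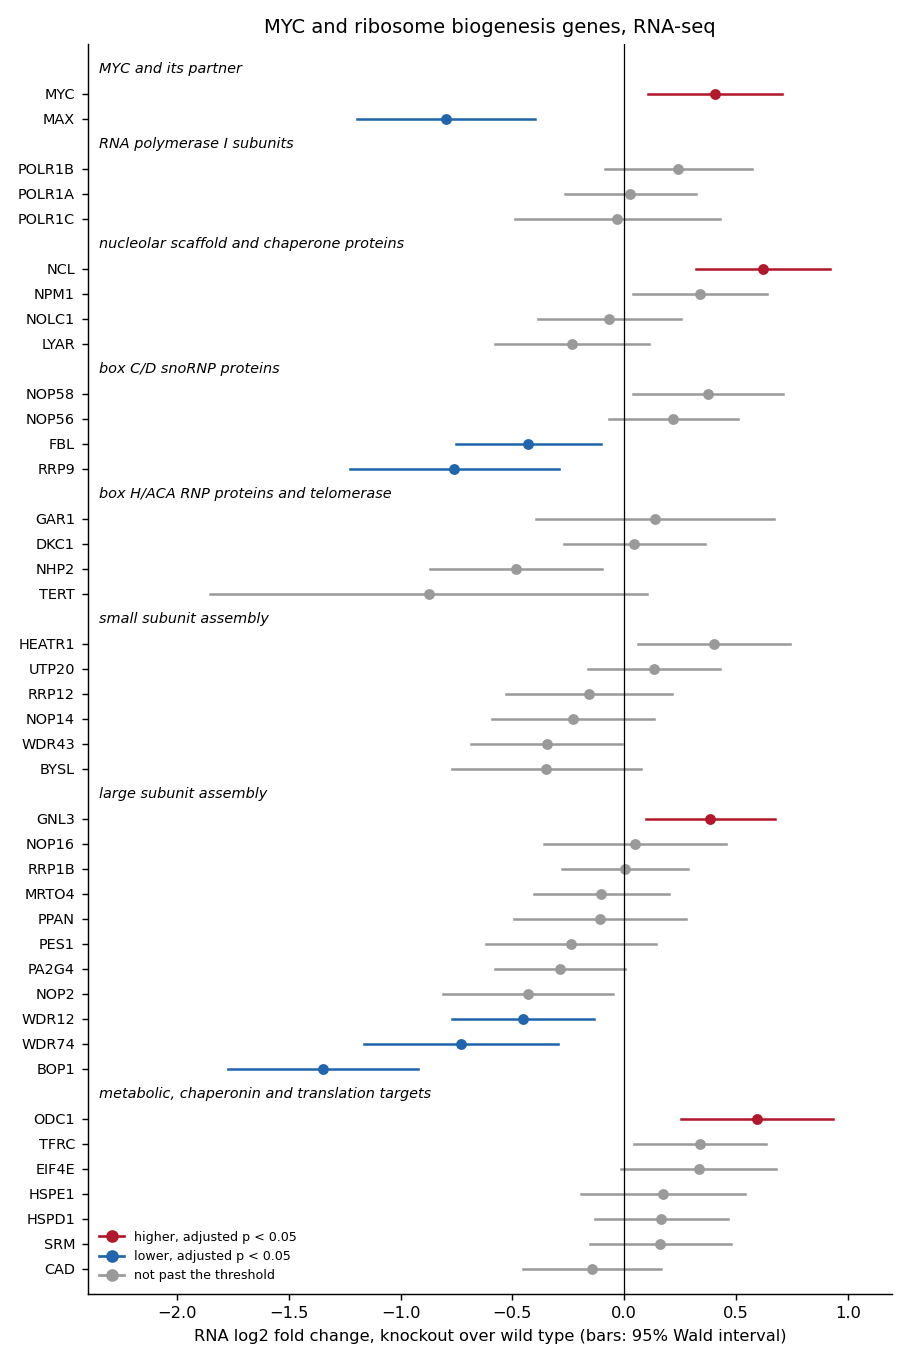
RNA log2 fold change of the 41 genes, knockout over wild type (x axis), grouped by role, with points for the deposited estimate and bars for its 95% Wald interval. The 4 red genes were called higher and the 6 blue ones lower, called genes of both directions occur in the large subunit group, and BOP1 lies farthest from 0.

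These are abundant transcripts. Per kb of annotated exon, the median of the 41 genes sat at percentile 94.8 of all tested genes, TERT at 26.8 and every other gene at 68.7 or above. Together the 41 genes made up 1.72% of the fitted normalised counts in the wild type and 1.95% in the knockout, and NPM1 alone was 37.1% of their summed mean. NPM1, a histone and ribosome chaperone of the nucleolus, had fitted levels of 23709 and 29967 per kb and was not called (deposited log2 fold change 0.34, SE 0.15, adjusted p = 0.109). Its 33 processed or other pseudogenes in the table summed to 6.24% of its mean, so part of its reads may be assigned to them or the reverse.

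**Figure D2:**
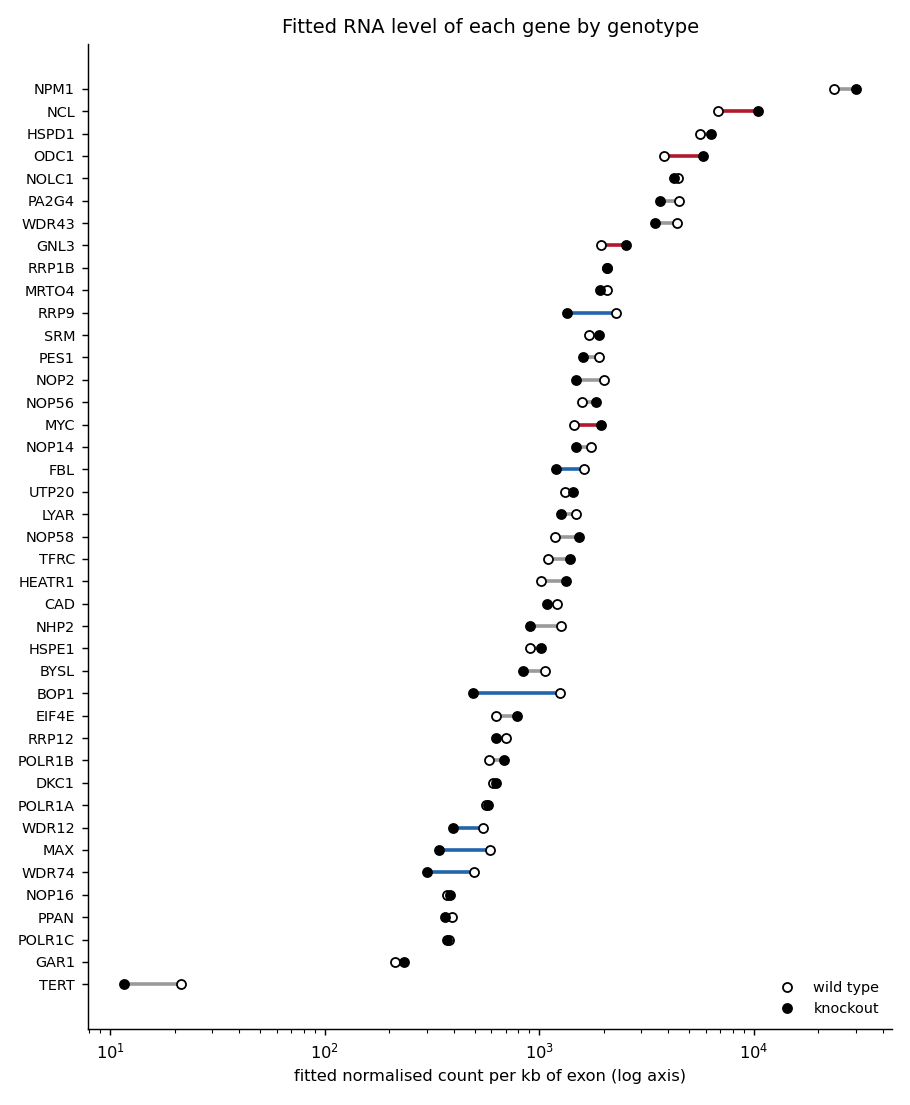
Fitted normalised count per kb of exon in the wild type (open circles) and the knockout (filled circles) for each gene, on a log axis, ordered by level. Red and blue lines join the genotypes of genes called higher and lower; the lines of most genes are short beside the spread of levels between genes, from TERT to NPM1.

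MYC RNA was higher in the knockout while ATAC counts around it were lower. MYC (chr8:127735434-127742951, plus strand, hg38) had a fitted level of 8927 normalised counts in the wild type and 11830 in the knockout, or 1461 and 1937 per kb of exon. The deposited log2 fold change was 0.41 (SE 0.15, adjusted p = 0.0424), a 1.33-fold difference close to the threshold. It was not called at a threshold of 0.01, with every gene kept in the adjustment (adjusted p = 0.0633), or with the test statistics scaled to their spread over all genes (adjusted p = 0.644).

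The stretch around MYC went the other way. Of its 167 tested genes 87 were called, 2 higher and 85 lower, with a median deposited log2 fold change of -0.91, while outside it 18.8% of tested genes were called and the median was 0.02. Of its 771 peaks, 529 were called (68.6%), 24 higher and 505 lower, with a median of -0.90, while outside it 35.5% of peaks were called and the median was -0.005. Among its 110 genes with a mean of at least 100, 8 had a positive value and MYC was the only one called higher. The other called higher gene of the stretch, LINC02964, had a mean of 49.6. DNA copy number was not measured, so fewer copies of the stretch in the knockout clones and less RNA or accessibility per copy cannot be told apart. In bulk libraries the same holds for fewer cells with a signal and less signal per cell.

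Set against the wider surroundings, MYC stood higher than its raw value, while its nearest tested genes gave no such comparison. Minus the median of the 282 ATAC peaks within 5 Mb, its RNA log2 fold change was 1.21 (adjusted p = 3.01e-13), and minus the median of the 36 tested genes within 5 Mb it was 0.88 (adjusted p = 3.31e-07). Closer in, the medians with MYC included were 0.33 over the 8 tested genes within 1 Mb, 6 of them positive, and 0.41 over the 9 within 2 Mb, 7 of them positive. The 0.41 is the value of MYC itself, so MYC could not stand above it. Of the positive genes, CASC11 overlaps MYC, and CASC19 and PRNCR1 had means of only 5.40 and 7.42. PVT1 was negative, at -0.86. Centred on the median of its whole chromosome, which is 0.26, MYC was at 0.14 and not called (adjusted p = 0.614).

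Near neighbours of MYC differed among themselves. CASC11, a long noncoding RNA that overlaps MYC on the opposite strand and has 24.8% of its mean, had fitted levels of 2192 and 2955 and a deposited log2 fold change of 0.43 (SE 0.20, adjusted p = 0.122). The library kit keeps strand, but the strand setting of the counting is not given in the sources used here, so reads of MYC and CASC11 may be mixed. PVT1, the long noncoding gene downstream of MYC, was lower (fitted 1085 and 599.6, deposited log2 fold change -0.86, SE 0.22, adjusted p = 0.00106), and so was CYRIB, a regulator of RAC1 (7622 and 2863, -1.41, SE 0.15, adjusted p = 3.11e-18). TRIB1 and ASAP1 were also called lower, at -0.94 and -0.74. SQLE, an enzyme of sterol synthesis, was at 0.08 (SE 0.16, adjusted p = 0.821).

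The peak at the MYC promoter, chr8:127734998-127736381, had fitted counts of 1272 in the wild type and 766.6 in the knockout (deposited log2 fold change -0.73, SE 0.08, adjusted p = 1.31e-16). Its surroundings were lower by a similar amount: minus the median of the peaks within 5 Mb it was 0.08 (adjusted p = 0.533). A second peak named for MYC, 5866 bp from the start, had 278.6 and 286.9 (0.04, SE 0.16, adjusted p = 0.872), and the third, 14889 bp from the start, had 91.4 and 34.6 (-1.40, SE 0.34, adjusted p = 2.00e-04). Of the 10 peaks within 0.1 Mb of the MYC start 6 were called, all lower.

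**Figure D3:**
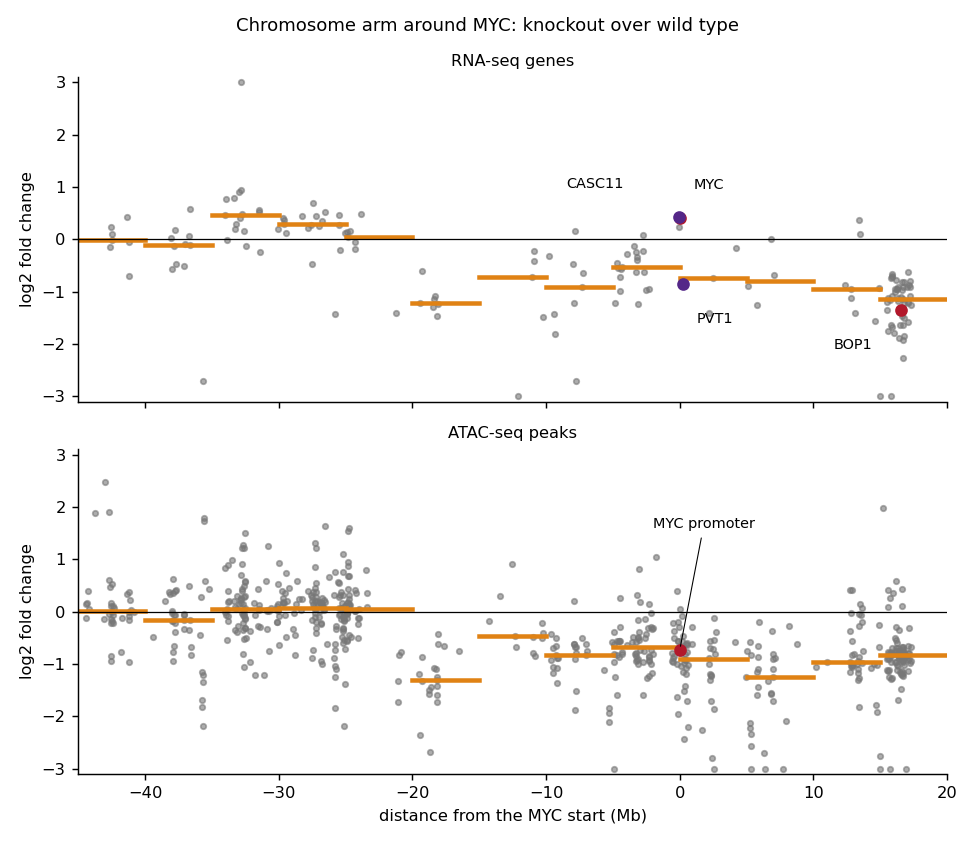
Log2 fold change, knockout over wild type, of genes with a mean of at least 100 (top) and of ATAC peaks (bottom) against the distance from the MYC start in Mb. Peaks of low mean, such as the third peak named for MYC, are left out. Orange lines are medians of 5 Mb bins with enough features, and values beyond 3 either way are drawn at the edge. MYC and CASC11 lie above 0 in RNA while PVT1, BOP1 and the bin medians from about -20 Mb onward lie under it, and the MYC promoter peak lies near the median of its surroundings.

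BOP1, with the largest change of the 41 genes, is the other one on the stretch. BOP1 (chr8:144262045-144291438, minus strand) encodes the scaffold of the complex with PES1 and WDR12 that matures the large subunit RNA. Its fitted level was 4832 in the wild type and 1899 in the knockout (1258 and 494.4 per kb), with a deposited log2 fold change of -1.35 (SE 0.22, adjusted p = 2.42e-08). Of the 110 stretch genes with a mean of at least 100, 28 were lower than BOP1. Minus the local RNA median of -1.08 its value was -0.27 (adjusted p = 0.488), and minus the local ATAC median of -0.86 it was -0.48 (adjusted p = 0.115), so the call does not hold against the surroundings. The peak at its start carries the name of its neighbour HSF1 (chr8:144291106-144292304) and fell from a fitted 959.5 to 528.4 (deposited log2 fold change -0.86, SE 0.10, adjusted p = 1.58e-17).

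The partners of BOP1 were not on this stretch. WDR12 was lower, with fitted levels of 5250 and 3831 (deposited log2 fold change -0.45, SE 0.16, adjusted p = 0.0305), and PES1 had 8582 and 7271 (-0.24, SE 0.19, adjusted p = 0.457). WDR12 overlaps NBEAL1 and CARF, whose means with that of a pseudogene sum to 29.0% of its own.

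MAX, which every MYC dimer needs to bind DNA, was lower in the knockout. Its fitted level (chr14:65006174-65102695) was 3697 in the wild type and 2128 in the knockout, or 590.8 and 340.1 per kb, a 1.74-fold drop (deposited log2 fold change -0.80, SE 0.20, adjusted p = 0.00105). The call held against both local medians, at -0.93 and -0.72. MAX overlaps FNTB and others whose means sum to 11.1% of its own. Per kb of exon, MYC RNA was 2.47 times MAX RNA in the wild type and 5.69 times in the knockout; the ratio has no test of its own. The MAX promoter peak, chr14:65102165-65103360, was also lower (fitted 1496 and 1194, deposited log2 fold change -0.33, SE 0.07, adjusted p = 3.60e-05).

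None of the 3 RNA polymerase I subunits was called by the DESeq2 test, and 0 had an unadjusted p under 0.05. POLR1A and POLR1B are the catalytic core and POLR1C is shared with RNA polymerase III. POLR1C overlaps XPO5 and others whose means sum to 223.5% of its own. POLR1B had the smallest adjusted p, with fitted levels of 5237 and 6193 (deposited log2 fold change 0.24, SE 0.17, adjusted p = 0.361). POLR1A RNA was nearly level, at 11167 and 11379 (0.03, SE 0.15), while its promoter peak fell from a fitted 1066 to 793.9 (-0.43, SE 0.08, adjusted p = 4.36e-06) and 2 peaks farther off were lower at -0.63 and -0.66.

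Nucleolin, NCL, the abundant RNA-binding protein of the nucleolus, had the smallest adjusted p among the genes that were higher. Its fitted level (chr2:231453531-231483641, minus strand) was 60950 in the wild type and 93729 in the knockout (deposited log2 fold change 0.62, SE 0.15, adjusted p = 5.75e-04). Its promoter peak, chr2:231463707-231465275, rose from a fitted 1677 to 2222 (0.41, SE 0.06, adjusted p = 2.66e-10). NCL lies where the median of peaks within 5 Mb was 0.50: minus that median its RNA value was 0.12 (adjusted p = 0.699), and its promoter peak turned to -0.10 minus the median of the other peaks. NOLC1, a chaperone of small nucleolar RNPs, and LYAR, a nucleolar growth regulator, were not called (-0.07 and -0.23).

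The box C/D proteins, which methylate ribosomal RNA with snoRNA guides, split. FBL, the methyltransferase, had fitted levels of 3451 and 2564 (deposited log2 fold change -0.43, SE 0.17, adjusted p = 0.0495), at the edge of the threshold, and the call ended under both local centrings (adjusted p = 0.136 against the peaks). RRP9, a protein of the U3 particle, had 3513 and 2076 (-0.76, SE 0.24, adjusted p = 0.0108), and was not called minus the local RNA median (-0.53, adjusted p = 0.125). Minus the local ATAC median RRP9 stayed called (-0.73, adjusted p = 0.0186). The core partners NOP56 and NOP58 lay on the other side of 0, at 0.22 and 0.38, and were not called (adjusted p = 0.336 and 0.112). The RRP9 promoter peak did not follow its RNA: it had fitted counts of 1876 and 1843 (-0.03, SE 0.06, adjusted p = 0.781).

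The box H/ACA proteins NHP2, DKC1 and GAR1, which turn uridine into pseudouridine and hold telomerase RNA, and TERT had no called gene among the 4 and 1 at an unadjusted p under 0.05. NHP2 came closest, with fitted levels of 1876 and 1340 (deposited log2 fold change -0.49, SE 0.20, adjusted p = 0.0652), and was called with the genes limited to a mean of at least 100 (adjusted p = 0.0477). NHP2 overlaps RMND5B, whose mean is 55.2% of its own. DKC1, the pseudouridine synthase, and GAR1 were at 0.05 and 0.14. The promoter peaks of NHP2 and GAR1 were each lower by about the same amount (-0.25, SE 0.08 and 0.09, adjusted p = 0.0131 and 0.0160).

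The 6 small subunit factors, NOP14, UTP20, HEATR1, WDR43, BYSL and RRP12, had no called gene and none of the 8 peaks named for them was called; at an unadjusted p under 0.05 there were 2 genes and 1 peak. Their deposited log2 fold changes ran from -0.35 to 0.40. HEATR1, which supports ribosomal RNA transcription and early processing, had the smallest adjusted p, with fitted levels of 9213 and 12159 (0.40, SE 0.17, adjusted p = 0.0892). WDR43 and BYSL, at -0.35 each, were called lower when centred on their chromosomes.

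Among the 11 large subunit factors 4 were called (36.4%, against 29.1% of genes whose mean reached 1000). Beside BOP1 and WDR12, WDR74 was lower, with fitted levels of 2118 and 1277 (deposited log2 fold change -0.73, SE 0.22, adjusted p = 0.00783), and was not called minus the local RNA median (-0.53, adjusted p = 0.0888). Minus the local ATAC median WDR74 stayed called (-0.68, adjusted p = 0.0179). It overlaps the U2 gene RNU2-2P, STX5-DT and TEX54, whose means sum to 52.2% of its own. GNL3, nucleostemin, was higher, with 6312 and 8246 (0.39, SE 0.15, adjusted p = 0.0476), and was not called when centred on its chromosome or with every gene in the adjustment. GNL3 stayed called minus the local RNA median (0.62, adjusted p = 5.01e-04) and minus the local ATAC median (0.42, adjusted p = 0.0319). It overlaps PBRM1 and others whose means sum to 119.6% of its own, and PPAN overlaps P2RY11 and others that sum to 100.6%. For NOP16 and NOP2 the genes that overlap them sum to 33.4% and 29.6%. The other 7 factors (NOP2, NOP16, RRP1B, MRTO4, PES1, PPAN and PA2G4) lay between -0.43 and 0.05; RRP1B, at 11863 and 11887, was the most level of the 41 genes.

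ODC1, which catalyses the first step of polyamine synthesis and is a classical MYC target, was the 1 called gene of the 7 metabolic, chaperonin and translation targets. Its fitted level (chr2:10439968-10448327) was 12684 in the wild type and 19149 in the knockout (deposited log2 fold change 0.59, SE 0.17, adjusted p = 0.00556), and the call held against both local medians. Its promoter peak, which spans its intron 1 E-boxes, did not rise with it (fitted 1572 and 1420, -0.15, SE 0.07, adjusted p = 0.0761). TFRC (transferrin receptor), EIF4E (cap-binding protein), SRM (spermidine synthase) and the mitochondrial chaperonins HSPD1 and HSPE1 lay between 0.16 and 0.34, and CAD, the enzyme of the first steps of pyrimidine synthesis, at -0.14; none was called. TFRC was called higher minus the local RNA median (0.45, adjusted p = 0.0244). The chaperonins may share reads with pseudogenes, 9 in the table for each, whose means sum to 2.53% of that of HSPD1 and 1.36% of that of HSPE1. Genes that overlap HSPE1, HSPD1 among them, sum to 2598% of its mean, so its value may hold their reads.

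Most promoter peaks of these genes had slightly lower accessibility estimates in the knockout. Of the 74 peaks 29 were called (39.2%, against 35.9% of all peaks), 10 higher and 19 lower (11 and 12 after local centring). Taking the peak nearest the start within 1000 bp for each of 34 genes, 13 were called (38.2%, against 33.7% of all such peaks), 2 higher, NCL and SRM, and 11 lower, against a background of 19.0% called lower. Of the 34, 31 had a negative deposited log2 fold change (91.2%), beside 59.7% of all such peaks and 64.1% of those with a mean of at least 500. Among these nearest peaks the sizes were small: the median was -0.14, beside -0.05 over all such peaks, and 33 of the 34 estimates lay within 1.5-fold, MYC being the exception. The largest drops outside chromosome 8 were those of TFRC (fitted 1499 and 1098, -0.45, SE 0.07, adjusted p = 5.86e-09), POLR1A and NOP2 (640.5 and 483.3, -0.41, SE 0.11, adjusted p = 9.29e-04). Minus the median of peaks within 5 Mb, 7 were called, all lower: 6 of the 13, and the NPM1 peak (-0.22, adjusted p = 0.00696), which was not called before. A further 3 peaks within 1000 bp of a start were not the nearest to it. Of these, a weak FBL peak (chr19:39845156-39845681) rose from a fitted 71.3 to 126.0 (0.82, SE 0.26, adjusted p = 0.00586) and an HSPD1 peak (chr2:197498857-197499475) from 211.6 to 337.9 (0.68, SE 0.15, adjusted p = 9.14e-05), so that over all 37 such peaks 4 were called higher and 11 lower.

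Few genes were called in both promoter and RNA. Of the 34 genes, 3 were called in both assays: NCL was higher in both, MAX was lower in both, and MYC went opposite ways. RNA alone was called for 5 genes, the promoter alone for 10 and neither for 16, and the signs were the same for 19. With 31 of the 34 promoter values negative, that last count mostly reflects the signs in RNA. No measure of association was computed. By E-box, the 17 genes with the motif in the 600 bases at the centre of the promoter peak had a median RNA log2 fold change of -0.16 with 1 called higher and 3 lower, and the other 17 had a median of 0.05 with 3 higher and 1 lower; the difference was not tested. ODC1, whose E-boxes lie in the peak but outside those bases, is 1 of the 3. Median promoter changes were -0.12 and -0.15.

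**Figure D4:**
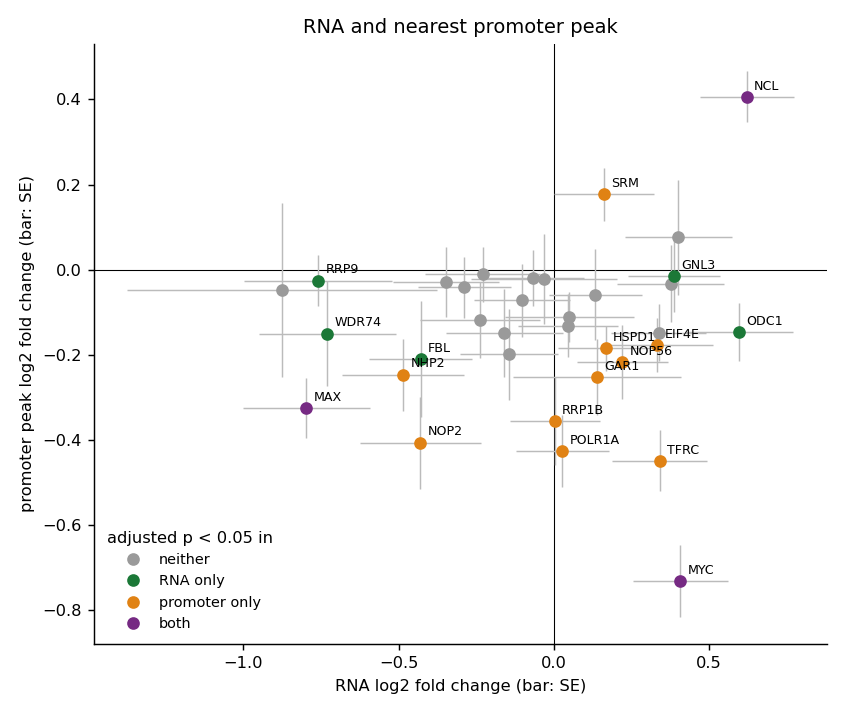
RNA log2 fold change (x axis) against that of the nearest promoter peak (y axis) for 34 genes, knockout over wild type, with bars for the SE of each; colours mark which assay called the gene. All but 3 points lie under 0 on the y axis, they spread to both sides of 0 on the x axis, and MYC is alone at the lower right.

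Away from promoters 14 of 37 peaks (37.8%) were called, 6 higher and 8 lower, near the 36.3% of all peaks beyond that distance. Among the 6 called peaks there with a mean at or above that of the median peak, TFRC had one lower peak in an intron 8570 bp from the start (-0.61, SE 0.17, adjusted p = 0.00109) and one higher peak 14418 bp upstream (0.49, SE 0.13, adjusted p = 6.28e-04). A peak 17290 bp from the NOLC1 start was lower (-0.67, SE 0.19, adjusted p = 0.00164), as was one 2331 bp upstream of NOP2 (-0.54, SE 0.21, adjusted p = 0.0303). The POLR1A pair given above makes up the rest. The names are those of the nearest start in the deposited annotation, which does not show which gene a peak acts on. The 6 genes without a peak of their own name (LYAR, WDR12, BOP1, BYSL, HSPE1 and POLR1B) each have one at the start under the name of a neighbour.

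In the wider pathway, 166 further genes in 8 lists had a row, and 34 of the 165 tested were called (20.6%, near the 19.2% of all tested genes and under the 29.1% of those whose mean reached 1000), 15 higher and 19 lower. Of these, 17 lay where the median of peaks within 5 Mb was beyond 0.4 either way, and all 17 had the sign of that median. Among the 17 were 5 neighbours of MYC, a list picked by position, so their place was fixed in advance. Uncalled pathway genes in such places did not all have that sign, TRAP1 and SQLE being examples. Among all tested genes 9.63% lie in such places, and among the 41 genes only MYC, BOP1 and NCL. After subtracting the local ATAC median 18 of the 34 remained called.

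The RNA polymerase I machinery had 6 of 15 genes called, 3 in each direction. RRN3, the initiation factor that recruits the polymerase, was higher (fitted 1556 and 3283, deposited log2 fold change 1.08, SE 0.17, adjusted p = 1.02e-08) in a place with a local ATAC median of 0.96. TAF1C of the promoter selectivity factor was lower (fitted 1542 and 769.7, adjusted p = 2.50e-05), in a place at -0.54. TCOF1, treacle, and UBTF, the ribosomal DNA binding factor, were lower at -0.83 and -0.58 in places at -0.05 and -0.02.

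Small subunit assembly had 10 of 41 called, 4 higher and 6 lower. LTV1 was at 0.77, NOB1 at -0.79, UTP4 at -0.77 and RCL1 at -0.84, each in a place whose local ATAC median was beyond 0.4 in the same direction, and RCL1 turned to 0.26 minus that median. Large subunit assembly had 6 of 39, 4 higher and 2 lower. RSL1D1 (1.13), RPF2 (0.82) and MAK16 (0.73) lay in places between 0.56 and 0.99, MAK16 turning to -0.09 minus the median, while NOC3L (fitted 3081 and 5449, 0.82, SE 0.17, adjusted p = 2.62e-05) lay in a place at -0.04.

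**Figure D5:**
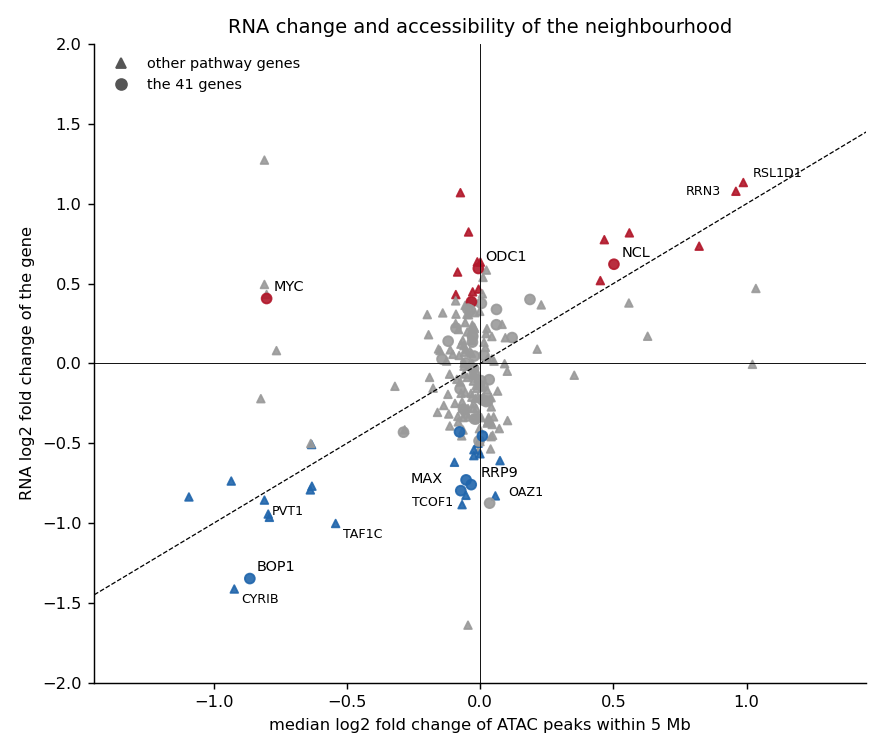
RNA log2 fold change of each gene (y axis) against the median log2 fold change of ATAC peaks within 5 Mb (x axis), circles for the 41 genes and triangles for the other pathway genes; red and blue mark genes called higher and lower, and the dashed line marks equal values. Most genes lie near 0 on the x axis, BOP1, NCL, RRN3 and RSL1D1 lie near the dashed line, and MYC lies well above it; EIF4EBP1, at 11.01, is beyond the plotted range.

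Of the 16 MYC network regulators 1 was called: MXD1, a MAX partner that opposes MYC, was higher (fitted 136.8 and 287.1, deposited log2 fold change 1.07, SE 0.36, adjusted p = 0.0196). snoRNP assembly had 1 of 10, ZNHIT6, lower at -0.88 (SE 0.22, adjusted p = 5.95e-04). Polyamine and nucleotide synthesis had 3 of 22. OAZ1, the antizyme that targets the ODC1 protein for degradation, was lower (fitted 38787 and 21824, -0.83, SE 0.20, adjusted p = 4.38e-04) while ODC1 was higher, PRPS2 was at -0.62 and ATIC at 0.52. ATIC lay in a place with a local ATAC median of 0.45, and minus that median it was 0.07 and not called (adjusted p = 0.850). Translation initiation and chaperones had 2 of 13, both higher: EIF4A1, the cap complex helicase (37764 and 58608, 0.63, SE 0.15, adjusted p = 4.79e-04), and EIF4EBP1, the inhibitor of EIF4E, which went from a fitted level near 0 (0.190) to 393.0 (adjusted p = 1.11e-11), for which the fitted fold is no bound. The neighbours of MYC had 5 of 9 called, all lower.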

How the data were processed

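Per the submitters' processing notes, the authors used DESeq2, featureCounts, STAR, Bowtie2, HOMER, cutadapt, Trim Galore and Trimmomatic, with GRCh38 or hg38; what was run in which order and version, the strand setting and the caller of the peaks were not given in the sources used here. The deposited tables, per the file headers, hold DESeq2 output: a mean normalised count over 4 libraries (the signal), a log2 fold change and its SE, a Wald score, a p-value and an adjusted p-value, and for peaks the HOMER annotation and, as the other unit, the distance to the nearest start in bp. The deposited Wald score matched the ratio of fold change to SE within 1.24e-13. The depth of each library is unknown; the deposited means sum to 32830400 normalised counts in RNA and 19927600 in ATAC.

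The edgeR quasi-likelihood test planned for counts could not be run, since the tables hold no counts per library; the authors' DESeq2 results were used in its place. Fitted levels per genotype follow from the deposited mean and fold change, taking groups of equal size. Gene positions and exon lengths came from GENCODE release 44, in which all 25377 identifiers were found. Local medians used the features within 5 Mb either side, at least 10, leaving out the feature itself in its own assay. The Wald tests of centred values kept the SE of the feature, so their p-values leave out the spread of the median. Local ATAC centring also takes a shift in peaks as the same size in RNA. Python 3.11.15 with numpy 2.4.6, pandas 2.3.3 and scipy 1.17.1 was used.

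The members, gene lists and alternatives were chosen with earlier results of these data known. Named in full were MYC, MAX, called members, members on the stretch, and in a role without a call the member with the smallest adjusted p; in each pathway list, up to 4 called genes with the smallest adjusted p; and, away from promoters, up to 8 called member peaks with the largest change among those whose mean reached that of the median peak, 110.8. Sequences were considered for the 6 called members with the smallest adjusted p, a promoter peak of their own name and a place off the stretch, and shown for 3 of them; 1 marker and some sequences are not reported here. Other members or values given were chosen after their values were seen.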

Additional observations from a re-analysis of the deposited data

How the results depend on the processing

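No paired analysis was possible because the tables hold no values per library; for the same reason leaving out each library was not run, so the weight of any 1 library is unknown. Of the 10 called genes, 5 remained at an adjusted p of 0.01, 1 (BOP1) in a test against a 1.5-fold change, 1 with statistics scaled to their spread over all genes, and 5 after local centring, where TFRC joined them to make 6. MYC was not called at 0.01 (log2 fold change 0.41), against 1.5-fold (adjusted p = 1.0), with scaled statistics (0.644), without the filter on low means (0.0633) or centred on its chromosome (0.14). BOP1 was not called after local RNA centring (-0.27) or local ATAC centring (-0.48). Member peaks fell from 29 to 1 against 1.5-fold and to 1 when scaled. Promoter peaks fell from 13 to 8 at 0.01, to 0 against 1.5-fold (15 had an unadjusted p under 0.05 in the DESeq2 test of no change), to 1 when scaled and to 7 after local centring; counting any peak within 1000 bp of the GENCODE start, an alternative chosen after seeing the data, gave 15 genes. Called stretch genes fell from 87 to 31 against 1.5-fold, 32 when scaled, 30 after local centring (12 higher, 18 lower) and 29 after local ATAC centring (12 higher, 17 lower), and stretch peaks from 529 to 184 against 1.5-fold, 110 when scaled, 286 at a mean of at least 100 and 233 after local centring (129 higher, 104 lower). Called pathway genes fell from 34 to 3 against 1.5-fold and to 4 when scaled. Signs turned after local centring for the MYC promoter peak (0.077), the NCL promoter peak (-0.10), MAK16 (-0.13, or -0.088 against peaks) and RCL1 (0.085, or 0.26 against peaks), and for ASAP1 against peaks (0.20). The scaled and centred values follow from their construction; the cause of the others was not tested.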
